A study of Mus musculus with 4 samples.

Results

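The Slc25 family is the set of mitochondrial carriers, membrane proteins that move metabolites, nucleotides and cofactors across the inner mitochondrial membrane. Its members were taken by gene symbol, Slc25a followed by a number, and 46 genes on 46 probe sets met this rule among 19505 named genes on the array. They were then grouped by carried substrate. The data were 4 mouse Clariom S arrays of heart RNA, 1 for each of 4 groups: PBS at day 7, Tbx6 at day 7, PBS at day 30 and Tbx6 at day 30. All groups were ICR (Jcl:ICR) mice injected on postnatal day 1 with either phosphate-buffered saline (PBS) or a viral vector carrying Tbx6, a T-box transcription factor of the embryonic mesoderm. The labels differ on the route: the growth protocol gives an injection beneath the dorsal skin, and the treatment labels name the neonatal heart. Hearts were collected 7 days or 30 days later. The control was PBS and not an empty vector. The sources used here do not name the promoter of the vector, the number of hearts behind each RNA sample or the animals' sex.

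Each mitochondrial carrier has a common fold of paired membrane helices and usually works as an exchanger, taking up one solute as it releases another. In the heart the family is best known for the exchange of ADP for ATP, which links the respiratory chain to contraction, and for the import of phosphate and of acylcarnitines. It also supplies the malate-aspartate shuttle, in which malate and oxoglutarate cross by one carrier and aspartate and glutamate by another, so that reducing equivalents made in the cytosol reach the matrix. Other members carry citrate, amino acids, coenzyme A, nucleotides, iron or glutathione, and several have no settled substrate.

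Values are the deposited expression values on a log2 scale, in which a step of 1 is a doubling, and levels of different genes are not set against each other because probes differ in brightness. A reading that did not exceed every background probe set of its array (the highest of these read 5.77 to 6.05 on the log2 scale) is called at background. Of the 46 carriers, 27 were above background on all 4 arrays and 17 were at background on all 4. Slc25a34 was above it on the 2 arrays of day 30 alone, and Slc25a15 on the Tbx6 array of day 7 alone. The expression filter, a mean over the arrays no lower than the all-gene median (5.30), was passed by 31 carriers, and these were tested. The other 15 were the ornithine carrier Slc25a2, the uncoupling protein-like Slc25a14 and Slc25a30, Slc25a18, Slc25a21, Slc25a25, Slc25a29, the testis ADP/ATP carrier Slc25a31, Slc25a33, Slc25a41, Slc25a43, Slc25a45, the liver carrier Slc25a47, Slc25a48 and Slc25a54, all at background on all 4 arrays. Slc25a32 and Slc25a53 passed the filter but were at background on all 4 arrays too.

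**Figure D1:**
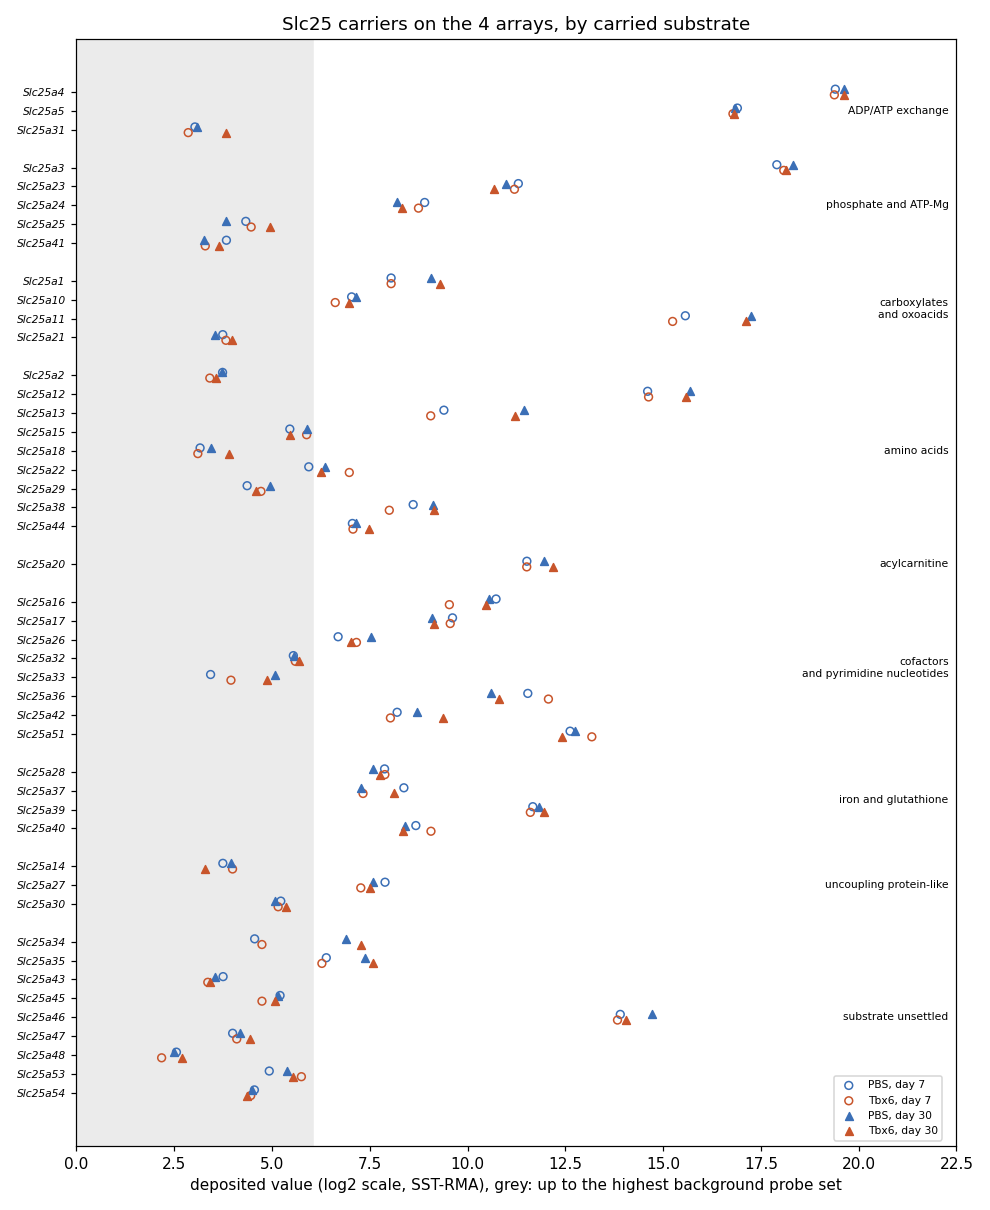
Deposited log2 value (horizontal axis) of each of the 46 Slc25 carriers (rows, grouped by substrate) on the 4 arrays; open circles are day 7, filled triangles day 30, blue PBS and orange Tbx6, and the grey area ends at the highest background value of any array, 6.05. Of the 46 carriers, 17 lie at background on all 4 arrays, and Slc25a11, Slc25a12 and Slc25a13 show both triangles to the right of both circles.

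With 1 array a group there is no replicate within a group. The comparison of days used the 2 injections as the pair of observations of each day, in limma's additive model of day and injection fitted to all 9753 genes past the filter, with Benjamini-Hochberg adjustment and a threshold of 0.05. The model leaves 1 residual degree of freedom, so a standard error (SE) given here rests mostly on the spread of other genes, and p-values measure only the spread between these arrays. All 10 cardiomyocyte markers listed were above background on every array and 0 of them passed for day by limma (0 had an unadjusted p under 0.05). Of these, 7 (Actc1, Myh6, Tnnt2, Myl2, Pln, Mb and Nppa) read 19.43 or above on every array, near the array's highest value of 19.93, where differences are compressed, so their lack of a call says little. The lists that moved with day were proliferation (6 of 6 tested genes fell), fibroblast (5 of 6 fell), macrophage (5 of 7 rose) and endothelial markers (2 of 6 fell). Of the 6 proliferation genes, Ccna2, Plk1 and Ube2c were at background on both arrays of day 30. They passed the filter only through their readings of day 7, so the filter favoured genes that fell. In addition, 1 of 2 tested erythroid markers fell and 1 of 6 tested fat markers, Retn, rose. Retn exceeded background only at day 30 (6.87 and 7.34, after 4.68 and 4.36), so its fitted change is no measured size. It passed the filter only through its readings of day 30. The median fitted change of the tested fat markers was -0.13, which rests in part on Cidec, at background on the PBS array of day 30. The log2 summed level of the proliferation list was 11.77 and 11.86 at day 7 and 7.83 and 8.34 at day 30. Only 1 of the 9 measured genes was above background on all 4 arrays, and the sums of day 30 include readings at background. The median fitted change of the tested genes was -3.95, which rests in part on such readings and is no measured size. That of the fibroblast list was 19.22 and 19.23 at day 7 and 18.51 on both arrays of day 30. This sum is mostly Dcn, at 18.34 to 18.47 on the 4 arrays, and the median change of the list's genes was -3.15. The macrophage sum was 11.54 and 11.44 at day 7 and 13.34 and 13.70 at day 30, and the endothelial sum was 16.70 and 16.59, then 15.70 and 15.81, with median changes of 1.69 and -0.69. The proliferation markers Cdk1 and Bub1 were at background on all 4 arrays, and 0 of the fibroblast, macrophage and endothelial markers were. In whole-heart RNA, fewer cells of a type and less RNA per cell cannot be told apart, and the part of these cell types in the carriers' changes was not tested.

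Between day 7 and day 30, the 3 carriers of the malate-aspartate shuttle, the citrate carrier Slc25a1, the coenzyme A carrier Slc25a42 and 2 of the 4 tested carriers without a settled substrate rose, and the pyrimidine nucleotide carrier Slc25a36 fell. In all, 7 of the 31 tested carriers rose, 1 fell and 23 did not pass the test. Among the 27 carriers above background on all 4 arrays, 6 rose and 1 fell; Slc25a34, the other that rose, passed the filter only through its readings of day 30. The 8 changed carriers are 25.8% of those tested, near the 26.3% of all 9753 genes that changed. In each direction, 22.6% of the tested carriers rose and 3.23% fell, against 14.2% and 12.1% of all tested genes. The median change was 0.18 over the 46 carriers and 0.23 over the 31 tested ones, against -0.03 over all genes and -0.02 over all tested genes. In 22 of the 31 the difference had the same sign in the PBS pair and in the Tbx6 pair, where 75.2% of all tested genes did so. The 22 include Slc25a32, which was at background on all 4 arrays. Between the PBS arrays 11 of the 31 differed by at least 1.5-fold, and between the Tbx6 arrays 15, where 43.4% and 44.1% of all tested genes did. In 7 carriers both pairs differed by at least 1.5-fold in the same direction, against 27.6% of all tested genes.

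**Figure D2:**
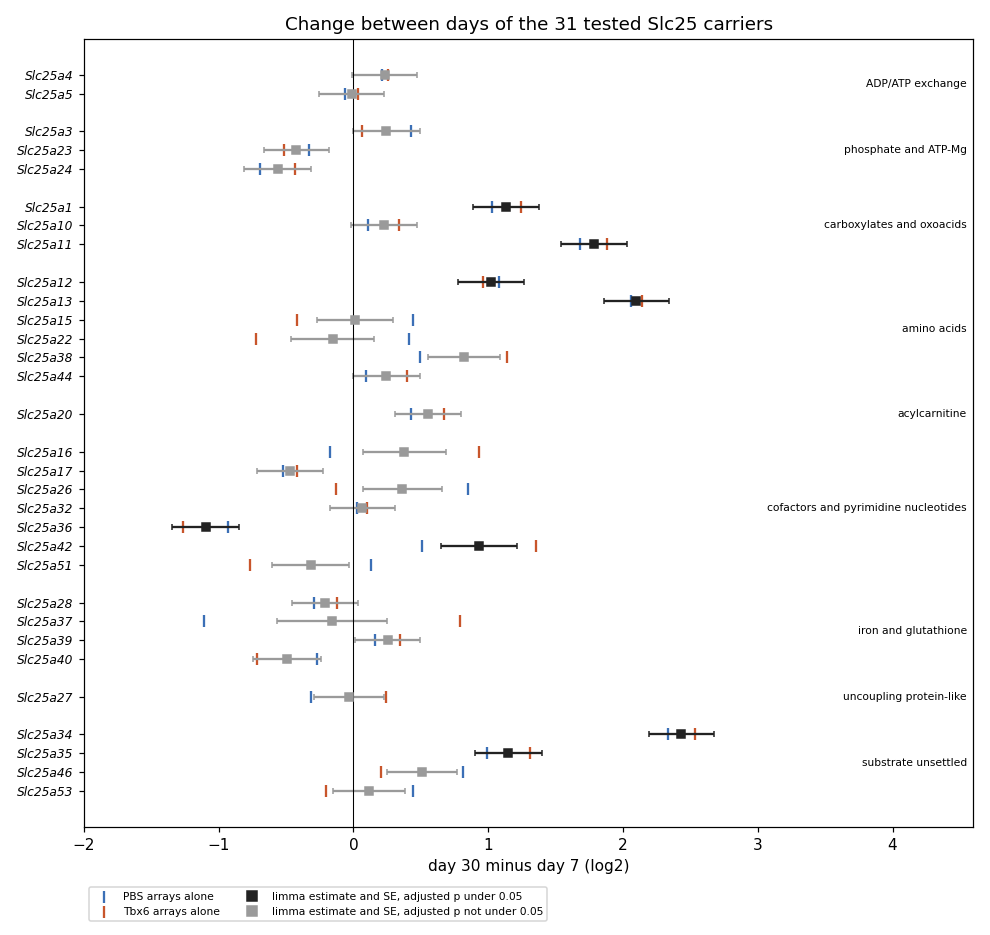
Change from day 7 to day 30 (horizontal axis, log2) of the 31 tested carriers; squares and bars are limma's estimate and SE, black where the adjusted p was under 0.05, and short blue and orange lines are the differences between the single PBS arrays and the single Tbx6 arrays. The 7 carriers that rose lie between 0.93 and 2.43, the last being Slc25a34, whose readings of day 7 were at background, Slc25a36 lies at -1.10, and the 2 single-array differences of Slc25a37 lie on opposite sides of 0.

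The 3 carriers of the malate-aspartate shuttle all rose. Slc25a11, the oxoglutarate/malate carrier, read 15.57 (PBS) and 15.24 (Tbx6) on the arrays of day 7, and 17.25 and 17.12 on those of day 30; pairs of readings below keep this order. Slc25a12 (aralar), the calcium-regulated aspartate/glutamate carrier of heart, muscle and brain, read 14.60 and 14.63 at day 7 and 15.68 and 15.59 at day 30. Slc25a13 (citrin), the aspartate/glutamate carrier best known from liver, read 9.40 and 9.06 at day 7 and 11.45 and 11.20 at day 30. In each of the 3 the days did not overlap, and the PBS and Tbx6 arrays of a day lay closer to each other than to those of the other day. The changes were 1.78 (SE 0.24, limma adjusted p = 0.00138) for Slc25a11, 1.02 (SE 0.24, limma adjusted p = 0.0166) for Slc25a12 and 2.10 (SE 0.24, limma adjusted p = 0.000608) for Slc25a13. When the fit with day as its term was repeated with 1 array left out each time, Slc25a11 and Slc25a13 passed in all 4 fits. Slc25a12 did not pass without the PBS array of day 30 (0.98, limma adjusted p = 0.0672) or without the Tbx6 array of day 30 (1.06, limma adjusted p = 0.0567).

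The enzymes that work with these carriers were listed as partners. Of the 4 shuttle enzymes, 3 rose, 0 fell and Mdh1 did not pass the test. The cytosolic aspartate aminotransferase gene Got1 read 14.13 and 14.41 at day 7 and 16.92 and 16.48 at day 30, a rise of 2.43 (SE 0.27). Got2, the mitochondrial form, rose by 0.85 (SE 0.24), and the mitochondrial malate dehydrogenase gene Mdh2 rose by 1.06 (SE 0.25). Its cytosolic counterpart Mdh1 had a change of 0.52 (SE 0.24, limma adjusted p = 0.148). Got2 and Mdh1 lay high on the scale, at 18.05 or above on every array, where the array's highest value is 19.93. Both cytosolic and mitochondrial transaminases and all 3 carriers of the shuttle were higher on both arrays of day 30.

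**Figure D3:**
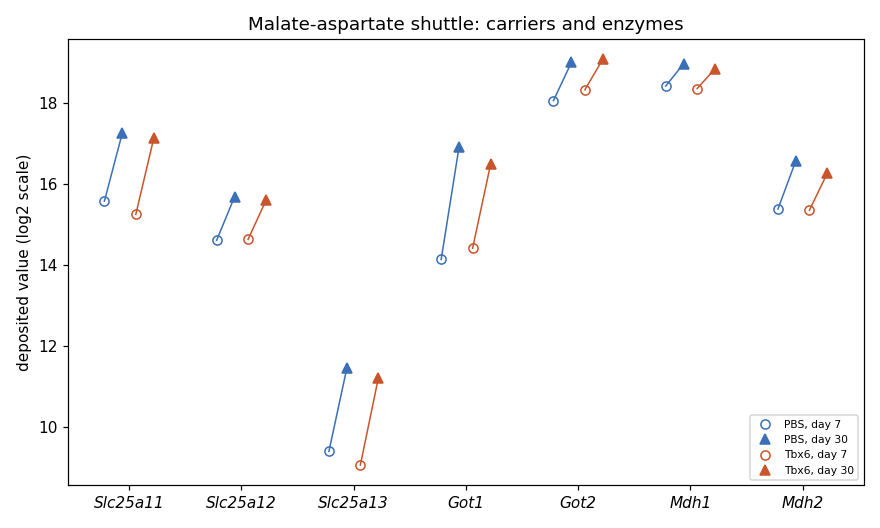
Deposited log2 value (vertical axis) of the 3 malate-aspartate carriers and the 4 shuttle enzymes (horizontal axis), with a line from day 7 (open circle) to day 30 (triangle) for PBS (blue) and Tbx6 (orange). Every line goes up; the largest rises are those of Got1 (2.43), Slc25a13 (2.10) and Slc25a11 (1.78).

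Promoter sequence was taken from RefSeq (GRCm38.p6) as the 250 bases before the annotated start of a gene, and 36 of the 46 carriers had at least 1 such window, 46 windows in all. The 3 shuttle carriers are shown because they rose together, a choice made after their values were seen, and Slc25a36 and Slc25a42 because they are the pair within one substrate group that changed in opposite directions. Capitals mark matches on either strand to the motifs searched, which were the estrogen-related receptor element TNAAGGTCA, the GC box with the letters GGGCGG, the CCAAT box, the E-box with the letters CACGTG and the TATA box with the letters TATAAA. None of these motifs contains another. All are shown 5′ to 3′ on the strand of the gene, which is the minus strand in each case. The windows are chr11:70647040-70647289 (Slc25a11), chr2:71367756-71368005 (Slc25a12), chr6:6217174-6217423 (Slc25a13), chr9:97111042-97111291 (Slc25a36) and chr8:70212282-70212531 (Slc25a42).
Slc25a11: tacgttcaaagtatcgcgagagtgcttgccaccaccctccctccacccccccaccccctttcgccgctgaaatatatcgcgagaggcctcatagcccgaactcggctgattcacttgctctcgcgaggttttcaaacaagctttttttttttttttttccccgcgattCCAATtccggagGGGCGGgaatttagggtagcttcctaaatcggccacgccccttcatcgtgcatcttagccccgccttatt
Slc25a12: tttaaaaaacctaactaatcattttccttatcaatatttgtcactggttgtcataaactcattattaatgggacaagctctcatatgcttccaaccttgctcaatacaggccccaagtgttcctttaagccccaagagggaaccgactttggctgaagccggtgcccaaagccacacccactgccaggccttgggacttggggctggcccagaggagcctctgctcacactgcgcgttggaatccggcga
Slc25a13: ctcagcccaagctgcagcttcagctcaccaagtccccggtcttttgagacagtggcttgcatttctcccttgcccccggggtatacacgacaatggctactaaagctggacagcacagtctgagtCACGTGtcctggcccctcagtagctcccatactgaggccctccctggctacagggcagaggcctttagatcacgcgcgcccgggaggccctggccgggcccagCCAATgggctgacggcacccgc
Slc25a36: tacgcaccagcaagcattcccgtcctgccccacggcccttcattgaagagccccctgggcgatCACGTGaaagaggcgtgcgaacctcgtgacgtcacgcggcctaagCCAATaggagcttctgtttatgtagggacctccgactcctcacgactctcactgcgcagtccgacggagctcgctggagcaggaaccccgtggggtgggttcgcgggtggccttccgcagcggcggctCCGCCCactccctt
Slc25a42: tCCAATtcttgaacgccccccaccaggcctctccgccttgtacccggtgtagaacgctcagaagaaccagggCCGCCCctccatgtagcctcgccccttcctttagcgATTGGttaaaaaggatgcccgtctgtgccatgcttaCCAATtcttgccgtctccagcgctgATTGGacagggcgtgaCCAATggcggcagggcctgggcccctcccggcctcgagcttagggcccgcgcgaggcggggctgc

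The window of Slc25a11 held 1 GC box and 1 CCAAT box, that of Slc25a13 held 1 CCAAT box and 1 E-box, and that of Slc25a12 held 0 matches to the 5 motifs. Slc25a36, which fell, held 1 GC box, 1 CCAAT box and 1 E-box, and Slc25a42, which rose, held 1 GC box and 5 CCAAT boxes. Over all carrier windows, a GC box was found in 69.6% against 32.7% of the 32851 windows of all genes, a CCAAT box in 45.7% against 33.8%, and an E-box in 17.4% against 6.02%. The estrogen-related receptor element was in 0 of the 46 windows and in 1.14% of all windows, and the TATA box was in 4.35% against 12.4%. The carrier windows had a median GC content of 57.4%, against 52.4% for all windows, which moves with motifs rich in G and C. The matches describe these letters and say nothing of binding.

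Among the other carboxylate carriers, Slc25a1, which exports citrate for fatty acid synthesis in the cytosol, rose. It read 8.05 on both arrays of day 7 and 9.07 and 9.29 on those of day 30, a change of 1.13 (SE 0.24, limma adjusted p = 0.0113). Without the Tbx6 array of day 30 it was 1.02 and did not pass (limma adjusted p = 0.062). Slc25a10, the dicarboxylate carrier that exchanges malate or succinate for phosphate, had a change of 0.22 (SE 0.24, limma adjusted p = 0.533), with readings from 6.62 to 7.15. Mpc1, a subunit of the pyruvate carrier of another protein family, rose by 1.10 (SE 0.24).

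The ADP/ATP and phosphate carriers, the members that the heart is best known for, did not pass limma's test for day, adjusted or not, apart from an unadjusted p of 0.0497 for Slc25a24. Slc25a4 (ANT1), the ADP/ATP carrier of heart and skeletal muscle, read 19.40 and 19.38 at day 7 and 19.61 and 19.63 at day 30. The days did not overlap, but all 4 readings lay close to the array's highest value of 19.93, where differences are compressed. Its change was 0.23 (SE 0.24, limma adjusted p = 0.513). Slc25a5 (ANT2), the form of growing and dividing cells, read 16.90 and 16.79 at day 7 and 16.84 and 16.82 at day 30, with the days overlapping and a change of -0.01 (SE 0.24, limma adjusted p = 0.974) whose sign turned after median centring (0.025). Slc25a3, which imports the phosphate used to make ATP and also carries copper, read 17.91 and 18.08 at day 7 and 18.33 and 18.15 at day 30. Its change was 0.24 (SE 0.25, limma adjusted p = 0.502).

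The ATP-Mg/phosphate carriers set the size of the adenine nucleotide pool in the matrix. Slc25a24 read 8.90 and 8.75 at day 7 and 8.21 and 8.32 at day 30, and Slc25a23 read 11.30 and 11.20 at day 7 and 10.97 and 10.68 at day 30. Both were lower on both arrays of day 30, with changes of -0.56 (limma adjusted p = 0.126) and -0.42 (limma adjusted p = 0.236) that did not pass the test. Among the partners of the ADP/ATP carriers, Ckmt2, the mitochondrial creatine kinase of striated muscle, rose by 2.55 (SE 0.29), and Ppif, the cyclophilin of the permeability pore, rose by 1.34 (SE 0.26). Of the 4 tested partners 2 rose and 0 fell, and the other two, the ATP synthase genes Atp5a1 and Atp5b, had equal readings on all 4 arrays (19.91 for the first and 19.8955 for the second), near the top of the scale.

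Slc25a20, which brings acylcarnitines into the matrix for oxidation, read 11.52 and 11.51 at day 7 and 11.95 and 12.18 at day 30. The days did not overlap, but the change of 0.55 (SE 0.25) did not pass the test (limma adjusted p = 0.133). Of its 5 tested partners 2 rose and 1 fell. Cpt2, which turns the imported acylcarnitine back into acyl-CoA, rose by 2.12 (SE 0.24), and the carnitine transporter gene Slc22a5 rose by 0.82 (SE 0.24). Cpt1a, the liver-type form of the enzyme that makes acylcarnitine, fell by 1.03 (SE 0.26), while Cpt1b, its muscle form, had a change of 0.08 (limma adjusted p = 0.839).

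Of the 6 tested amino acid carriers, Slc25a12 and Slc25a13 rose and 4 did not pass. Slc25a38, which brings in glycine for haem synthesis, read 8.61 and 7.999 at day 7 and 9.11 and 9.14 at day 30. The days did not overlap, and the change of 0.82 (SE 0.27, limma adjusted p = 0.0528) lay just outside the threshold. It passed after either other normalisation, with an intensity trend and over genes above the highest background, with limma adjusted p from 0.0366 to 0.0463. It did not pass without a filter (limma adjusted p = 0.0945) or with day as the only term (limma adjusted p = 0.0575). Nor did it pass with the mean of probe sets (limma adjusted p = 0.053) or a robust variance setting (limma adjusted p = 0.0527). Its change was 1.12 without the PBS array of day 7 and 0.51 without the Tbx6 array of day 7. It was 0.84 without the PBS array of day 30 and 0.80 without the Tbx6 array of day 30. Alas1, the haem synthesis enzyme of most tissues, which uses that glycine, rose by 1.81 (SE 0.25), while Alas2, the form of red cell precursors, fell by 2.09 (SE 0.47). Of 7 tested haem and iron partners 3 rose (Alas1, Cpox and Nfs1) and 1 fell (Alas2). Slc25a44, the carrier of branched-chain amino acids known from brown fat, read 7.06 and 7.07 at day 7 and 7.15 and 7.47 at day 30, a change of 0.25 that did not pass (limma adjusted p = 0.498).

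Of the carriers of cofactors and pyrimidine nucleotides, 1 rose, 1 fell and 5 of the 7 tested did not pass. Slc25a36, which carries pyrimidine nucleotides, was the 1 tested carrier of the family that fell. It read 11.54 and 12.07 at day 7 and 10.61 and 10.80 at day 30, and the days did not overlap. The change was -1.10 (SE 0.25, limma adjusted p = 0.0137), and it did not pass without the Tbx6 array of day 7 (-0.83, limma adjusted p = 0.07), the PBS array of day 30 (-0.999, limma adjusted p = 0.0931) or the Tbx6 array of day 30 (-1.19, limma adjusted p = 0.0621). The other pyrimidine nucleotide carrier, Slc25a33, was at background on all 4 arrays, and no change is given for it.

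Slc25a42, which brings coenzyme A into the matrix, read 8.20 and 8.03 at day 7 and 8.71 and 9.38 at day 30. Its change of 0.93 (SE 0.28, limma adjusted p = 0.0416) was the closest to the threshold of those that passed, with a larger difference between the Tbx6 arrays (1.35) than between the PBS arrays (0.51). It did not pass without the PBS array of day 7 (1.02, limma adjusted p = 0.0674), the Tbx6 array of day 7 (0.84, limma adjusted p = 0.113) or the Tbx6 array of day 30 (0.60, limma adjusted p = 0.222), and without a filter on dim genes its limma adjusted p was 0.0752. Slc25a17, a peroxisomal carrier of cofactors, read 9.62 and 9.56 at day 7 and 9.10 and 9.14 at day 30, a change of -0.47 that did not pass (limma adjusted p = 0.186). Slc25a51, the NAD carrier, read from 12.41 to 13.18 with the days overlapping. The S-adenosylmethionine carrier Slc25a26 also overlapped between days, from 6.69 to 7.54.

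Of the 4 tested carriers without a settled substrate, 2 rose and 2 did not pass. Slc25a34 was at background at day 7 (4.56 and 4.74) and read 6.89 and 7.28 at day 30. Against the highest background value its rise was at least 1.09 between the PBS arrays and at least 1.51 between the Tbx6 arrays, and these bounds are the sizes measured. The fit to the deposited values gave 2.43 (SE 0.24, limma adjusted p = 0.00032), which is no measured size since both readings of day 7 were at background. The gene passed the filter only through its readings of day 30, and a filter above the highest background left it out. Slc25a35, a close relative of unknown substrate, read 6.39 and 6.28 at day 7 and 7.38 and 7.58 at day 30, a change of 1.15 (SE 0.25, limma adjusted p = 0.0112). It did not pass without the Tbx6 array of day 30 (1.05, limma adjusted p = 0.06). Slc25a46, an outer membrane member that takes part in mitochondrial dynamics, read 13.91 and 13.83 at day 7 and 14.71 and 14.04 at day 30, and its change of 0.51 did not pass (limma adjusted p = 0.188).

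Of the 4 carriers of iron and glutathione 0 passed for day by limma, and 0 had an unadjusted p under 0.05. Slc25a39, which imports glutathione, read from 11.61 to 11.95, and its relative Slc25a40 from 8.35 to 9.06, with changes of 0.25 (limma adjusted p = 0.478) and -0.49 (limma adjusted p = 0.187). Slc25a28 (mitoferrin 2), the iron importer of tissues in general, read from 7.58 to 7.89, with a change of -0.21 (limma adjusted p = 0.558). The single tested uncoupling protein-like carrier, Slc25a27, read from 7.27 to 7.89, with a change of -0.04 (limma adjusted p = 0.935) that turned to 0.039 after quantile normalisation and to 0.0040 after median centring. Of genes with the same fold under other symbols, Mtch2 rose by 0.85 (SE 0.27), Mtch1 fell by 1.03 (SE 0.28), Ucp3 fell by 1.01 (SE 0.24) and Ucp1 (limma adjusted p = 0.133) did not pass.

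Wider lists of mitochondrial transport were counted as well. Among 17 tested genes of other mitochondrial channels and carriers 2 rose (Mpc1 and Sfxn4) and 0 fell, with a median change of 0.39. Among 11 tested genes of the import route that inserts carriers into the inner membrane 0 passed for day by limma (2 had an unadjusted p under 0.05), with a median change of 0.44. The voltage-dependent anion channels of the outer membrane, Vdac1, Vdac2 and Vdac3, had changes of 0.42, 0.13 and 0.35 that did not pass.

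The comparison of injections asked how these carriers differed after Tbx6 against PBS. By limma's additive model 0 of the 31 tested carriers passed for injection, as did 0% of all 9753 tested genes, and 0 carriers had an unadjusted p under 0.05, against 4.32% of all tested genes. The model takes the difference between injections as equal on both days, and one that changed with day counts as spread. A difference on 1 day alone, or in opposite directions, can thus be missed. The lowest unadjusted p of a carrier was 0.0703, that of Slc25a16. The Tbx6 probe set itself was at background on all 4 arrays (3.70 and 4.14 at day 7, 3.57 and 3.66 at day 30), and whether its probes cover the part the vector carried is not stated, so it does not check the labels. The differences below are between 1 array and 1 array, with no replicate check and no test.

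At day 7, 6 of the 31 tested carriers differed by at least 1.5-fold, 2 higher and 4 lower after Tbx6. That is 19.4%, where 15.6% of all tested genes differed so, 7.23% higher and 8.41% lower. Slc25a16, a carrier linked to coenzyme A, read 10.73 after PBS and 9.54 after Tbx6, a difference of -1.19, while at day 30 it read 10.55 and 10.47. The Tbx6 array of day 7 was the low one of the 4, and without the PBS array of day 7 its change between days was 0.98 (limma adjusted p = 0.0397) instead of 0.38 (limma adjusted p = 0.399). Slc25a22, a glutamate carrier, read 5.94 after PBS, just above the array's background limit of 5.80, and 6.98 after Tbx6, a difference of 1.04, and 6.35 and 6.26 at day 30. Slc25a27 differed by -0.62 (7.89 and 7.27, then 7.58 and 7.51 at day 30) and Slc25a38 by -0.61. Slc25a53 is counted among the 6, and among the 2 higher, by a difference of 0.82 in the deposited values (4.93 and 5.75, then 5.37 and 5.55 at day 30). All its readings were at background, so this is no measured difference. Among the carriers above background on all 4 arrays the count was 5.

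At day 30, 3 of the 31 tested carriers differed by at least 1.5-fold, 2 higher and 1 lower after Tbx6. That is 9.68%, where 13.2% of all tested genes did so, 7.13% higher and 6.06% lower. Slc25a42 was higher by 0.67 (8.71 and 9.38) and Slc25a46 lower by 0.67 on the log2 scale (14.71 and 14.04, a difference of -0.67). Slc25a42 was highest on the Tbx6 array of day 30, and Slc25a46 on the PBS array of day 30. Over the 31 tested carriers the median difference was -0.02 at day 7 and 0.02 at day 30, as against -0.02 and 0.01 over all tested genes. The sign was the same on both days in 15 of the 31, and in 49.2% of all tested genes.

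**Figure D4:**
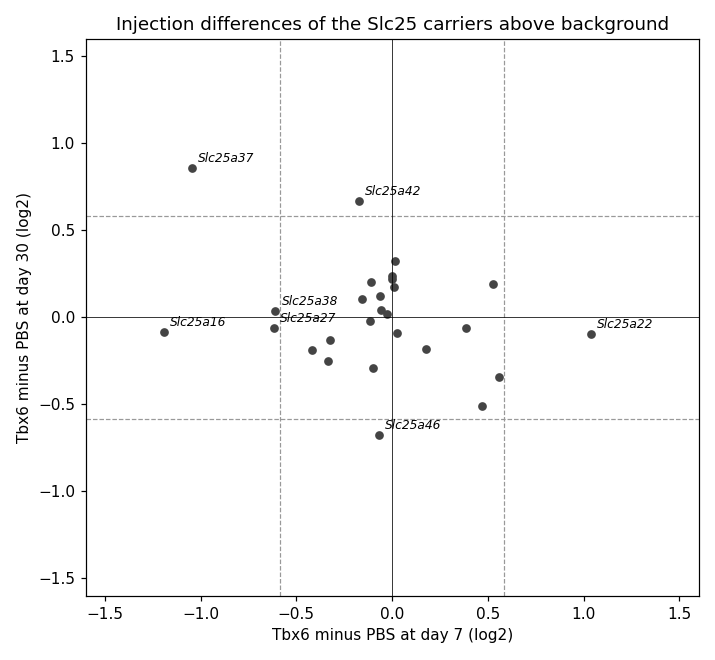
Tbx6 minus PBS at day 7 (horizontal axis, log2) against the same at day 30 (vertical axis, log2) for the 27 carriers above background on all 4 arrays; dashed lines mark 1.5-fold. Most points lie inside the central square, and Slc25a37 is the 1 point past 1.5-fold on both days, lower after Tbx6 at day 7 and higher at day 30.

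Slc25a37 (mitoferrin 1), the iron importer needed for haem synthesis in red cell precursors, was the 1 carrier past 1.5-fold on both days. On the arrays of day 7 it read 8.37 (PBS) and 7.33 (Tbx6), and on those of day 30 it read 7.26 and 8.12, differences of -1.04 and 0.86. The PBS array of day 7 and the Tbx6 array of day 30 were the high ones, and the days overlapped. Of 4 measured erythroid markers, Epb42 and Klf1 were at background on all 4 arrays. Alas2, the haem enzyme of red cell precursors, read 12.52 and 10.73 at day 7 and 9.24 and 9.82 at day 30, and Slc4a1, the band 3 anion exchanger, 7.72 and 7.97, then 7.53 and 6.55. The log2 summed level of the 4 was 12.58 and 10.94 at day 7 and 9.66 and 9.99 at day 30, and this sum is mostly Alas2. The sum was highest on the PBS array of day 7, as was Slc25a37. Slc4a1 was instead highest on the Tbx6 array of day 7 and lowest on the Tbx6 array of day 30. The part of red cells in these readings was not tested.

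Markers of other tissues also differed between the arrays. The log2 summed level of 7 lung epithelial markers was 13.36 on the PBS array of day 7, where Scgb1a1 read 12.89, and 6.93 to 7.56 on the other arrays. On those other arrays the sum is of readings at background, except Cyp2f2 on the Tbx6 array of day 30 (6.31). Sftpa1, Sftpb and Sftpc were at background on all 4 arrays. Over 10 markers of brown and white fat the log2 summed level was 17.15 and 17.07 at day 7 and 16.47 and 16.73 at day 30. This sum is mostly Fabp4, at 16.46 to 17.10 on the 4 arrays, and hides larger differences. Ucp1 read 11.92 and 7.60 at day 7, then 5.69 (at background) and 8.34. Adipoq read 7.98 and 6.08 at day 7, then 7.49 and 9.83. Cidea was instead higher after Tbx6 on both days, by 0.53 and 0.62. The median difference between injections of the 6 tested fat markers was -0.65 at day 7 and 1.32 at day 30. Plin1, Lep and Elovl3 were at background throughout. All 8 fast skeletal muscle markers and 6 of 7 liver markers were at background on all 4 arrays. The part of lung or fat RNA in the carriers' differences was not tested.

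In the RefSeq gene order (GRCm38.p6), 4 pairs of carriers are neighbours with no protein-coding gene between them: Slc25a29 and Slc25a47 on chromosome 12, Slc25a41 and Slc25a23 on chromosome 17, Slc25a54 and Slc25a24 on chromosome 3, and Slc25a43 and Slc25a5 on chromosome X. In the last 3 pairs one member (Slc25a23, Slc25a24 or Slc25a5) was above background on all 4 arrays and the other at background on all 4. Both members of the chromosome 12 pair were at background on all 4 arrays.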

How the data were processed

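Per the labels, heart RNA was amplified and labelled with biotin and hybridised to 1-colour Clariom S arrays, and per the series' design text and the submitters' processing notes the deposited log2 values were made by the authors with SST-RMA in Affymetrix Expression Console 1.4. The sources used here do not state the log base, which was inferred from how far the values range. Of 28846 probe sets 19572 carried 1 gene symbol in the platform annotation, 0 carried several, and 9274, control probe sets included, are unnamed here. All 19572 had the same symbol in RefSeq by Entrez identifier. The highest probe set was kept where a gene had more than 1 (55 genes), although each carrier had a single one. Background came from 23 probe sets made for that purpose on each array. Differences were taken on the values as deposited, tested with limma 3.58.1 in R 4.3.3 (two-sided), and counted with Python 3.11.15 and pandas 2.3.3. The fit was run on simulated data with independent noise, in which the change between days was equal after both injections. That run checks the calculation and says nothing of the limits of 1 array a group. Other normalisations, filters and variance settings, and 1 array left out at a time, were tried. Where 1 array of a day was left out, the lone array of that day was assumed to vary like the others. Precision is limited by the number of arrays.

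The carriers, their substrate groups and the partner and marker lists were chosen with earlier results of these data known. All carriers could be named. All 4 readings were given for those that passed a test, those at least 1.5-fold different between injections and the carriers the heart is known for, and for others where they showed whether the days overlapped. Protein sequences are not shown.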

Additional observations from a re-analysis of the deposited data

Results flagged for a closer look

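The injection difference of Slc25a37 went in opposite directions on the 2 days, -1.04 at day 7 and 0.86 at day 30 on the log2 scale, which is 1.90 apart. With 1 array a group this difference was not tested.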

How the results depend on the processing

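The count of 8 carriers changed with day was 8 or 9 under each other normalisation, filter, choice of probe set and variance setting, 8 with day as the only term, and 3 to 9 with 1 array left out, lowest without the Tbx6 array of day 30. Among the carriers above background on all 4 arrays, a setting added after seeing the data, it was 7. The median change stayed between 0.14 and 0.24 in every setting run. The limma count for injection was 0 in every setting with all 4 arrays, including injection as the only term, added after seeing the data. In that last fit the difference between days counts as spread. By limma 19 of the 9753 tested genes had an unadjusted p under 0.05 there, so its 0 carriers say little. The day 7 count of 6 was 5 to 7 at 1.5-fold and 3 at 2-fold. The day 30 count of 3 was 6 without a filter on dim genes and 0 at 2-fold. Of 19 carriers followed singly, 8 had passed, and Slc25a11 and Slc25a13 passed in every setting. Slc25a34 was left out by the filter above the highest background, and elsewhere its fitted change is against readings at background. With 1 array left out, changes that had not passed turned sign for Slc25a5 (-0.0707 to 0.0433), Slc25a16 (-0.22 to 0.98), Slc25a22 (-0.67 to 0.36), Slc25a27 (-0.34 to 0.27), Slc25a37 (-0.68 to 0.37) and Slc25a53 (-0.29 to 0.53). The readings of Slc25a53 were at background on all 4 arrays, so its values are no measured changes. Slc25a27 was at 0.039 after quantile normalisation and 0.0040 after median centring, and Slc25a5 at 0.025 after centring. The cause was not tested. The additive model already compares days within each injection, and day as the only term is its unpaired form. No pairing by replicate number was possible, because each group has 1 array.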
